A study of Mus musculus with 12 samples.

Results

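Interscapular brown fat was compared with epididymal white fat in 6 RNA sequencing libraries, 3 of each depot (BAT 1 to 3 and EWAT 1 to 3), out of 12 libraries in the series. The libraries were chosen by their titles, and 18942 of the 47729 genes in each table passed a filter on low counts and were tested. All mice were wild-type male C57BL/6J animals of 6 to 10 weeks on a high-fat diet, and every depot had been denervated by surgery. Both depots therefore carry the same diet and the same operation, and no intact or lean tissue is part of the comparison. The labels do not say whether the 3 libraries of a depot came from separate animals or from pools, so a p-value reflects the spread among these samples alone, which may be technical. The other 6 libraries, from inguinal (IWAT) and retroperitoneal white fat (RWAT), entered the count filter, the scaling and the estimate of that spread. They are used below to place single genes and some lists.

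Brown fat burns fatty acids to make heat through the mitochondrial uncoupling protein UCP1, under the control of sympathetic nerves that release noradrenaline. Epididymal fat is a visceral white depot of male rodents that stores triglyceride, is covered by mesothelium and gathers many macrophages in obesity. The depots arise from different parts of the embryo, and transcription factors such as ZIC1, TBX15 and WT1 are known to mark that origin in adult fat. Interscapular brown fat comes from dorsal mesoderm near the muscle lineage, whereas part of visceral white fat descends from WT1-positive mesothelium.

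Total expected counts were between 18285352 and 21106554 in these 6 libraries, where 3 counts equal 0.143 to 0.171 CPM. Levels are counts relative to the library total (CPM) with TMM scaling, fold changes are log2 of BAT over EWAT with their standard error, and n is 3 libraries a depot. The libraries of each depot were uneven. Summed over the tested members, pan-adipocyte genes were 19788, 8699 and 34256 CPM in BAT 1 to 3 and 4042, 17112 and 14731 CPM in EWAT 1 to 3, with the lowest sums in EWAT 1 and BAT 2. Transcripts of skeletal muscle, which lies next to interscapular fat, summed to 416, 77.00 and 52.6 CPM in BAT 1 to 3 and 20.4, 36.8 and 24.7 CPM in EWAT 1 to 3, with the highest sum in BAT 1. In bulk tissue, fewer cells of a type and less RNA per cell cannot be told apart.

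The labelled depots were first checked against defining genes. Zic1, a zinc finger factor that marks brown fat, was 7.35, 16.02 and 14.2 CPM in BAT 1 to 3 and 0.0952, 0.343 and 0.0488 CPM in EWAT 1 to 3. Lhx8, a homeobox factor of brown fat, was 9.06, 7.96 and 10.6 CPM in BAT and had 0 counts in every EWAT library. These markers of origin thus set all BAT libraries apart from all EWAT libraries. Ucp1, however, was 1489, 0.253 and 1.698 CPM in BAT 1 to 3 and 0.0952, 0.0571 and 2.198 CPM in EWAT 1 to 3. Cidea, a lipid droplet protein abundant in brown fat, was 309, 0.558 and 2.300 CPM in BAT 1 to 3 and 0, 0.171 and 0.488 CPM in EWAT 1 to 3. Only BAT 1 had these heat-production transcripts at a high level, and Ucp1 in BAT 2 and BAT 3 lay within the EWAT range. On the EWAT side, Wt1 was 16.7, 19.8 and 16.4 CPM against at most 0.493 CPM in BAT, and 0 of 25 epididymis and sperm genes passed the count filter. Th, the enzyme that starts noradrenaline synthesis in sympathetic nerves, was below the filter, with 1 count in EWAT 2 and 0 in the other 5 libraries.

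**Figure D1:**
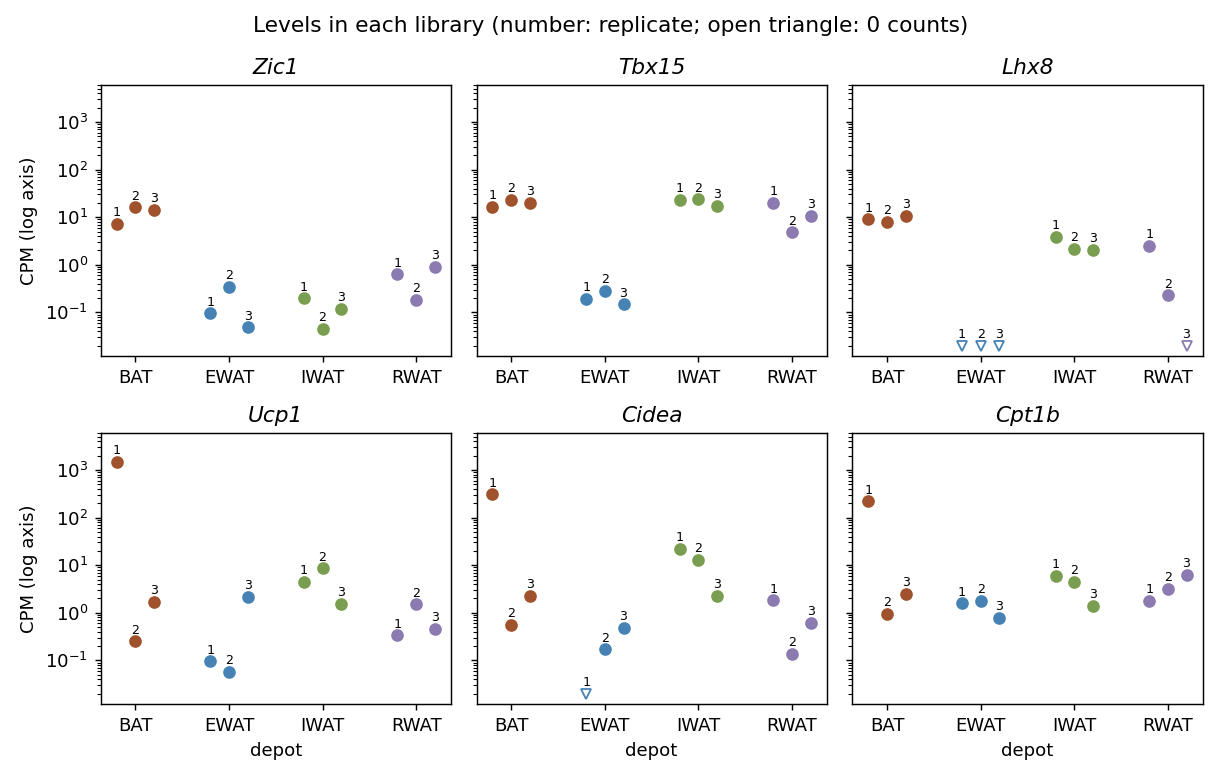
CPM on a log axis of 3 transcription factor genes (top row) and 3 genes of heat production and fatty acid burning (bottom row) in each of the 12 libraries, with the replicate number above each point and open triangles for 0 counts. Zic1, Tbx15 and Lhx8 are high in all 3 BAT libraries and at or near 0 in EWAT, while Ucp1 reaches 1489 CPM in BAT 1 and lies at 0.253 and 1.70 CPM in BAT 2 and BAT 3.

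The comparison across all genes asked which transcripts differ between the depots. With the edgeR quasi-likelihood test and a Benjamini-Hochberg adjusted p under 0.05, 27 genes were called, or 0.143% of those tested. Of these, 17 were higher in BAT (0.0897%) and 10 were lower (0.0528%), and all 27 were protein coding. None overlapped between the 3 BAT and 3 EWAT libraries, which is not separate evidence because the test used the same libraries. Without adjustment, a p under 0.05 was reached by 1142 genes higher in BAT (6.03%) and 742 lower (3.92%). All BAT libraries lay above all EWAT libraries for 1039 genes (5.49%), and below them for 975 (5.15%). These shares are the background for the gene lists that follow. The median log2 fold change of all tested genes was 0.0065.

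The number of calls depended on the method and on single libraries. The earlier quasi-likelihood method, which is the default of the edgeR version used, called 16 genes, 12 higher and 4 lower. The 11 that it did not call were Hand2, Krt18, Dsg2, Krt8, Mmp3, Syndig1, Pcdh20, Arsi, Gata5, Ifi205 and Aqp5, with adjusted p between 0.0509 and 0.1505. Leaving out a BAT library gave 3 calls without BAT 1, 247 without BAT 2 and 9 without BAT 3. Leaving out an EWAT library gave 13 calls without EWAT 1, 8 without EWAT 2 and 4 without EWAT 3. Libraries of the other depots, which enter the count filter, the scaling and the estimate of spread, mattered too. There were 11 calls without IWAT 2 and 46 without either RWAT 1 or RWAT 2. Tbx15 and Zic1 were called in all 12 fits that left out 1 library. Zfhx4 was called in 11, a further 4 genes, Col4a6, Myrf and Krt18 among them, in 9, and the other 20 genes in 4 to 8.

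**Figure D2:**
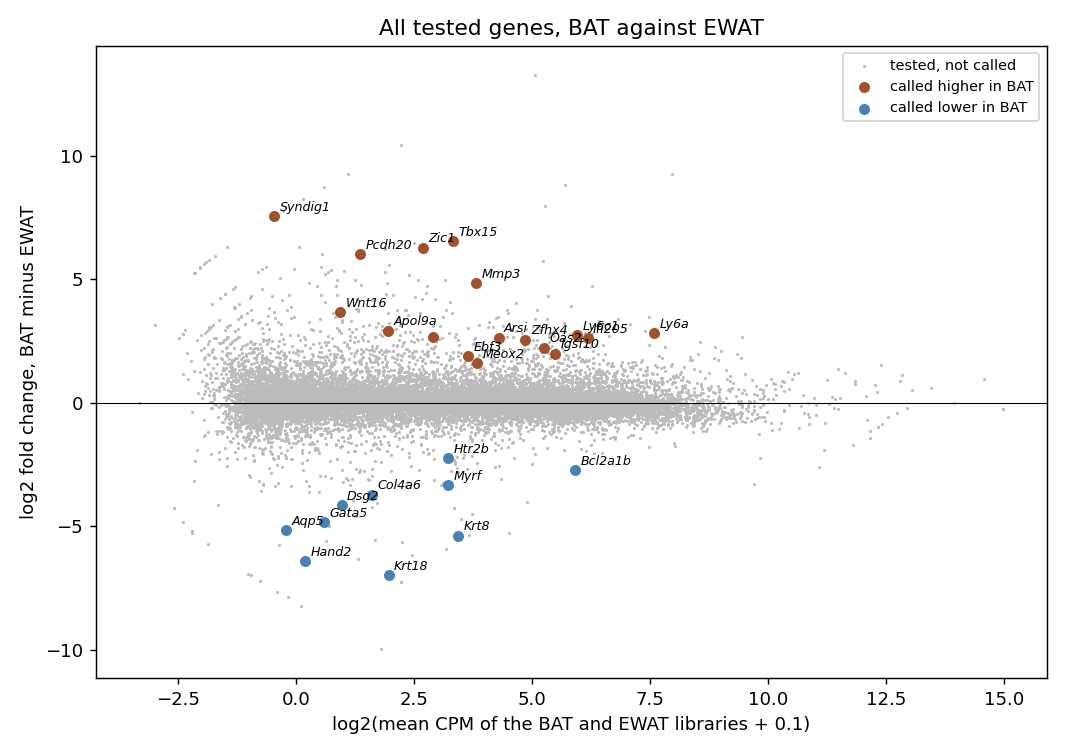
Log2 fold change of BAT minus EWAT against the log2 mean CPM of the 6 libraries for all 18942 tested genes, with the 17 genes called higher in BAT in brown, the 10 called lower in blue and the rest in grey. Called genes span low levels such as Syndig1 and high levels such as Ly6a, and many genes with large differences are not called.

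Transcription factor genes led the genes higher in BAT. Tbx15 (chr3:99240381-99354259, GRCm38), a T-box factor of dorsal and subcutaneous fat, was 16.4, 23.1 and 19.7 CPM in BAT 1 to 3 and 0.1904, 0.285 and 0.147 CPM in EWAT 1 to 3. Its mean was 19.7 ± 3.35 CPM in BAT and 0.207 ± 0.07101 CPM in EWAT (SD, n = 3), and it rose by 6.55 ± 0.55 on the log2 scale (SE, adjusted p = 0.00139). Zic1 (chr9:91358058-91365810), with the levels given above, rose by 6.28 ± 0.66 (adjusted p = 0.00314). Zfhx4 (chr3:5218526-5415857), a large zinc finger homeobox factor, was 45.5, 44.9 and 58.2 CPM in BAT 1 to 3 and 7.62, 10.2 and 7.33 CPM in EWAT 1 to 3 (log2 fold change 2.56 ± 0.29, adjusted p = 0.0108). Each of these genes had its lowest BAT library several times above its highest EWAT library. Ebf3 (chr7:137193673-137314445), of the early B-cell factor family that includes the brown fat factor EBF2, was 21.9, 15.3 and 21.7 CPM in BAT and 6.19, 5.94 and 3.76 in EWAT (log2 fold change 1.89 ± 0.28, adjusted p = 0.03199). Meox2 (chr12:37108540-37179534), a mesenchyme homeobox factor, was 20.6, 23.3 and 20.8 CPM in BAT and 8.05, 7.48 and 5.57 in EWAT and rose least among the called genes, by 1.61 ± 0.25 (adjusted p = 0.0339).

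Of 19 tested brown fat transcription regulators, 4 were called higher (Tbx15, Zic1, Ebf3 and Meox2) and 0 lower. Over all tested genes these shares were 0.0897% and 0.0528%. 10 had an unadjusted p under 0.05 with a higher level in BAT, against 6.03% of all tested genes. 6 members had all BAT libraries above all EWAT libraries and 0 the reverse, against 5.49% and 5.15% of all tested genes. The median log2 fold change of the list was 1.32, against 0.0065 over all tested genes, and 0.96 without BAT 1. The mean log2 CPM of the members (prior count 2) was 4.58, 3.59 and 4.20 in BAT 1 to 3. It was 2.19, 2.72 and 2.39 in EWAT 1 to 3 and 3.53, 2.83 and 3.37 in RWAT 1 to 3. In IWAT 1 to 3 it was 4.12, 4.12 and 3.76, within the range of BAT, so the list did not set BAT apart from IWAT. Lhx8, with 520 counts in BAT and 0 in EWAT, was at least 180.2-fold higher against a floor of 3 counts over the group, with an adjusted p of 0.0564. Ebf2, the partner factor of brown precursors, did not pass (50.4, 26.8 and 32.9 CPM in BAT and 13.2, 19.8 and 11.2 in EWAT, adjusted p = 0.253). Prdm16, a coregulator of the brown programme, was 13.8, 3.85 and 7.72 CPM in BAT and 4.43, 2.23 and 1.81 in EWAT and the depots overlapped (adjusted p = 0.254). Ppara, the nuclear receptor of fatty acid burning, was 48.2, 0.811 and 4.93 CPM in BAT and 0.143, 1.77 and 1.32 in EWAT, highest in BAT 1. Ebf2, Prdm16 and Ppara are named for their known roles, after their values were seen.

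Among 18 tested dorsal trunk and subcutaneous patterning factors, 1 was called higher in BAT, 8 had an unadjusted p under 0.05 with a higher level in BAT and 4 with a lower level. Over all tested genes these shares were 0.0897%, 6.03% and 3.92%. Zic4, whose annotated gene overlaps Zic1 on the other strand, was 1.01, 1.67 and 3.396 CPM in BAT with 0 counts in EWAT, at least 39.5-fold higher (adjusted p = 0.0563). Shox2, a limb and trunk homeobox factor, was 3.89, 4.71 and 2.25 CPM in BAT and 0.428, 0.114 and 0.244 in EWAT (adjusted p = 0.239). Alx1, a homeobox factor best known from the face, went the other way, with 0 counts in BAT and 1.14, 1.03 and 1.81 CPM in EWAT, at least 25.3-fold lower in BAT (adjusted p = 0.0563). The list therefore held genes on both sides, and its median log2 fold change was 0.43. The 8 became 3 without BAT 2 and 5 without EWAT 3, and the 4 became 2 without any 1 of the BAT libraries or EWAT 2 and 1 without EWAT 1.

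The other genes higher in BAT encode surface, matrix and signalling proteins. Ly6a (chr15:74994877-74998031), the Sca-1 surface antigen of mesenchymal progenitors, was 449, 203 and 359.6 CPM in BAT 1 to 3 and 42.9, 43.96 and 55.2 CPM in EWAT 1 to 3 (log2 fold change 2.83 ± 0.37, adjusted p = 0.0151). Ly6c1 (chr15:75044018-75048830), a related antigen that has a near-identical neighbour, Ly6c2, was 82.4, 82.9 and 158 CPM in BAT and 10.4, 20.7 and 17.5 in EWAT (log2 fold change 2.73 ± 0.40, adjusted p = 0.0305). Reads of such copies may be split by the quantification, so the Ly6c1 value is uncertain. Ly6a was the most abundant called gene, and even BAT 2, the lowest BAT library, stood well above every EWAT library. Wnt16 (chr6:22288227-22298522), a Wnt ligand, was 2.98, 4.92 and 2.19 CPM in BAT 1 to 3 and 0.1904, 0.343 and 0.244 CPM in EWAT 1 to 3 (log2 fold change 3.68 ± 0.47, adjusted p = 0.0146). Mmp3 (chr9:7445822-7455975), a matrix protease made by fibroblasts, was 23.1, 12.6 and 45.2 CPM in BAT and 0.667, 0.856 and 1.27 in EWAT (log2 fold change 4.85 ± 0.75, adjusted p = 0.0339). Igsf10 (chr3:59316735-59344394), an immunoglobulin superfamily member, was 69.6, 74.8 and 69.3 CPM in BAT and 13.5, 25.9 and 14.8 in EWAT (log2 fold change 1.98 ± 0.28, adjusted p = 0.0264), and its BAT libraries lay close together. Arsi (chr18:60911780-60918561), an arylsulfatase, was 23.9, 42.6 and 34.6 CPM in BAT and 3.24, 9.08 and 3.96 in EWAT (log2 fold change 2.64 ± 0.43, adjusted p = 0.0458). Pcdh20 (chr14:88464743-88471396), a protocadherin, was 3.94, 4.92 and 5.81 CPM in BAT and 0.0952, 0.114 and 0 in EWAT, with 4 counts in EWAT altogether (log2 fold change 6.03 ± 1.05, adjusted p = 0.04505). Syndig1 (chr2:149829211-150004392), a membrane protein first described at synapses, was 2.08, 0.7604 and 0.931 CPM in BAT and had 0 counts in EWAT. It was at least 24.6-fold higher in BAT against a floor of 3 counts over the group (adjusted p = 0.0245).

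**Figure D3:**
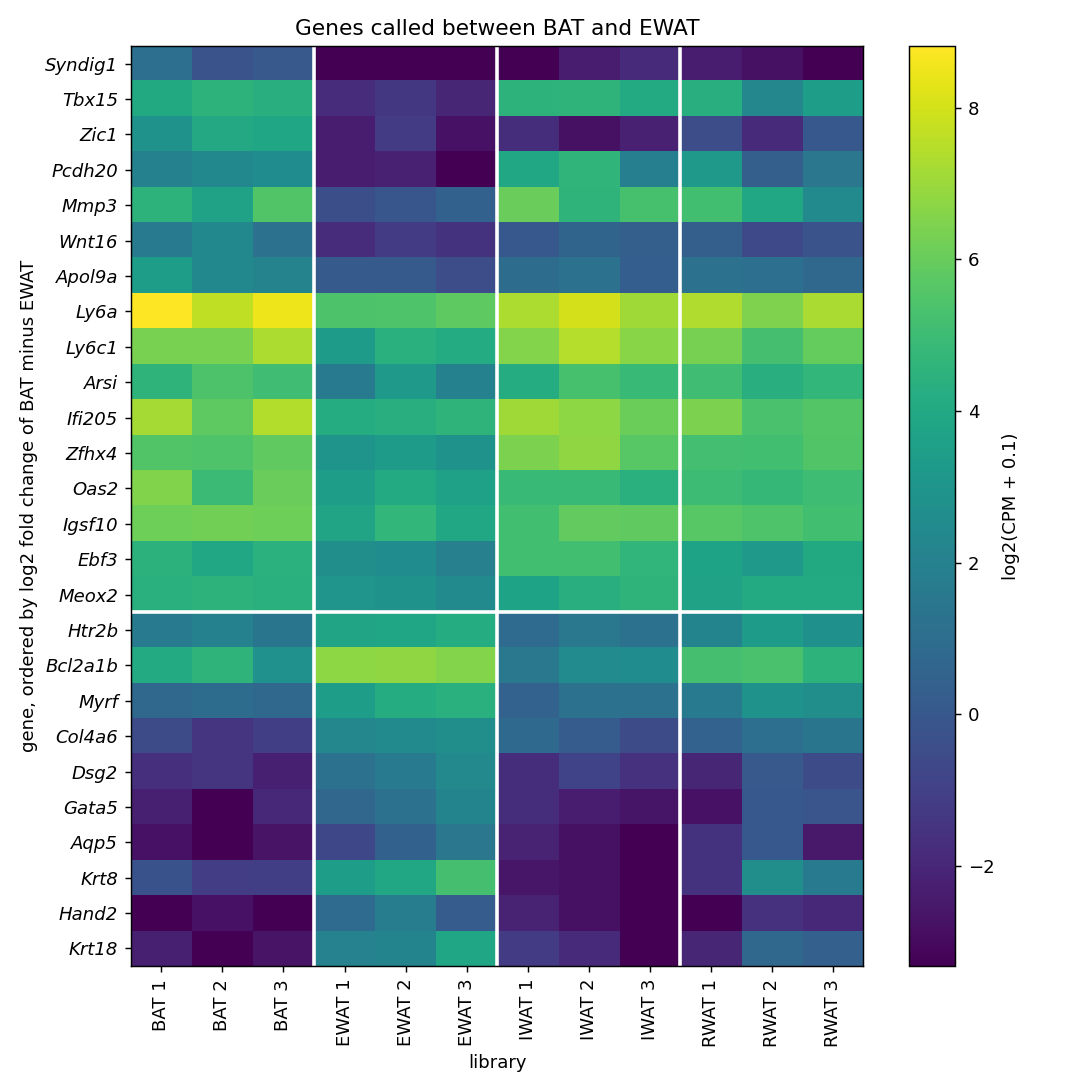
Heat map of log2(CPM + 0.1) of 26 of the 27 called genes (rows, ordered by log2 fold change) in all 12 libraries (columns), with white lines between depots and between the genes higher and the 10 lower in BAT. No row overlaps between the BAT and EWAT columns, which the test itself compared. Tbx15 is also high in IWAT and RWAT and Zic1 is low in both.

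Genes of the interferon response had higher fitted levels in BAT for all 25 list members tested, although 1 of them was called. Interferons are antiviral cytokines whose receptors activate a transcription factor complex that binds the interferon-stimulated response element in the promoters of its targets. Oas2 (chr5:120730333-120749853), an enzyme that senses double-stranded RNA, was 91.2, 30.9 and 65.7 CPM in BAT 1 to 3 and 10.5, 16.8 and 12.4 CPM in EWAT 1 to 3 (log2 fold change 2.24 ± 0.34, adjusted p = 0.0332). Ifi205 (chr1:174011998-174031810), of the interferon-inducible p200 family, was 144, 56.6 and 171 CPM in BAT and 18.1, 19.5 and 23.3 in EWAT (log2 fold change 2.61 ± 0.43, adjusted p = 0.0458). Apol9a (chr15:77403789-77411135), an interferon-inducible apolipoprotein L, was 10.7, 5.02 and 4.22 CPM in BAT and 0.9998, 0.971 and 0.635 in EWAT (log2 fold change 2.93 ± 0.43, adjusted p = 0.03199). BAT 2 was the lowest BAT library for Oas2 and Ifi205 and still exceeded each EWAT library. Ifi205 and Apol9a have close copies in the genome, which makes their counts uncertain.

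Promoters of 3 interferon response genes are shown because they hold the letters of that response element. RefSeq windows (GRCm38.p6) of the 250 bases before the start site were searched on both strands for GAAA followed by any 2 bases and GAAA again, where overlapping matches count separately. Isg15, a ubiquitin-like antiviral modifier, and Rsad2, the antiviral enzyme viperin, were picked from the interferon list for their matches, and Ifi205 from the called genes. The sequences lie at chr4:156200819-156201068 (Isg15), chr12:26456453-26456702 (Rsad2) and chr1:174031811-174032005 (Ifi205), all on the minus strand. They are written 5′ to 3′ along the gene with matches in capitals, and that of Ifi205 stops at 195 bases, where the annotated gene begins.
Isg15: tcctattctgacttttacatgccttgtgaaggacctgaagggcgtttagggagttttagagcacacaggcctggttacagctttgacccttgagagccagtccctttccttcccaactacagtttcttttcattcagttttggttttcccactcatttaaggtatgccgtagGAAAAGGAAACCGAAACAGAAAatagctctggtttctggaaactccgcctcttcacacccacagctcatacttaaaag
Rsad2: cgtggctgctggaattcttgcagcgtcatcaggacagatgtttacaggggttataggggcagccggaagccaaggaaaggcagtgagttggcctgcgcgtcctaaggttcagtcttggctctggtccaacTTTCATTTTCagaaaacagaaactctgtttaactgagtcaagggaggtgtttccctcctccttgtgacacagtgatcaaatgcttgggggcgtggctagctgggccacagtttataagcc
Ifi205: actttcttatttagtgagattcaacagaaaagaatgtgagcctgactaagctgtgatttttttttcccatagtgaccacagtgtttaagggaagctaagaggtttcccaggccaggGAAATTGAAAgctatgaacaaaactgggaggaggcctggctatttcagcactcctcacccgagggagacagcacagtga
The match was found in 11 of 18 interferon response genes with a window (61.1%) and in 936 of 27025 genes in the whole table (3.46%). The other 7 interferon genes with a window had none. Isg15 had 3 matches in 1 run, and Rsad2 and Ifi205 had 1 each. Among the 19 called genes with a window, Ifi205 and Apol9a were the 2 with a match. A match describes letters and does not show a bound site. Isg15 was 94.1, 11.1 and 27.5 CPM in BAT and 6.48, 4.97 and 6.11 in EWAT (adjusted p = 0.0957), and Rsad2 was 265, 35.7 and 103 CPM in BAT and 58.2, 12.2 and 31.5 in EWAT (adjusted p = 0.317). BAT 1 and BAT 3 were above EWAT for both genes, and BAT 2 lay within the EWAT range for Rsad2.

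Each of the 25 tested interferon response genes had an unadjusted p under 0.05 with a higher level in BAT, against 6.03% of all tested genes. The 1 called was Oas2, where 0.0897% of all tested genes were called higher in BAT. 18 of the 25 had all BAT libraries above all EWAT libraries, against 5.49% of all tested genes. Their median log2 fold change was 2.64, within a range of 1.43 to 3.49. Ifi44, an interferon-induced protein, was 76.1, 9.43 and 21.2 CPM in BAT 1 to 3 and 3.19, 3.197 and 3.08 CPM in EWAT 1 to 3 (adjusted p = 0.0544). Stat2, a transducer of the interferon signal, was 149, 47.1 and 126 CPM in BAT and 29.4, 36.7 and 32.1 in EWAT (adjusted p = 0.0823). Oasl2, a ligase-like relative of the OAS enzymes, was 196, 56.5 and 122 CPM in BAT and 23.5, 17.5 and 36.1 in EWAT (adjusted p = 0.0855). In each of these genes BAT 1 was highest and BAT 2 lowest within BAT. The whole list summed to 4067, 793 and 3192 CPM in BAT 1 to 3. Its sums were 779, 803 and 576 CPM in IWAT 1 to 3 and 1219, 777 and 582 CPM in RWAT 1 to 3. BAT 2 thus lay within the ranges of IWAT and RWAT, and BAT 1 and BAT 3 lay above them. Without BAT 1 the median was 1.87, 24 genes had an unadjusted p under 0.05 (against 4.38% of all tested genes) and 0 were called. Without BAT 2 the median was 3.05 and 22 genes were called, against 1.26% of all tested genes. DESeq2 on all libraries called 24, against 2.52% of all tested genes.

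Markers of T and natural killer cells, which make interferon gamma, were unequal among the same libraries. Of 23 tested genes, 22 had a higher fitted level in BAT, 11 with an unadjusted p under 0.05, against 6.03% of all tested genes. 0 were called, and 2 had all BAT libraries above all EWAT libraries, against 5.49% of all tested genes. The summed level of these markers was 329, 47.95 and 96.1 CPM in BAT 1 to 3 and 75.2, 84.95 and 164 CPM in EWAT 1 to 3. Gzma, a cytotoxic granule protease, was 29.5, 1.98 and 7.94 CPM in BAT and 0.905, 2.798 and 3.32 in EWAT (adjusted p = 0.279). Prf1, the pore-forming perforin, was 9.59, 0.253 and 3.89 CPM in BAT and 0.714, 0.343 and 0.879 in EWAT (adjusted p = 0.267), and so was high in BAT 1 and BAT 3 but not in BAT 2. Cd2, an adhesion receptor of lymphocytes, was 11.5, 1.72 and 3.89 CPM in BAT and 1.095, 1.71 and 1.27 in EWAT (adjusted p = 0.276). As a list their median log2 fold change was 1.69, and 0.37 without BAT 1, where 0 genes had an unadjusted p under 0.05. That count was 7 without EWAT 1 and 18 without BAT 2, where 9.43% of all tested genes had such a p. BAT 2 had the lowest sum of these markers among the 6 libraries. The interferon response genes summed to 793 CPM in BAT 2 and to 494 to 633 CPM in EWAT. The part of lymphocytes in the interferon response values was not tested. Of 22 antigen presentation genes, 12 had a higher level in BAT at an unadjusted p under 0.05, against 6.03% of all tested genes, and 0 were called. The 12 became 7 without BAT 1, BAT 3 or EWAT 1, and 8 genes were called without BAT 2, where 1.26% of all tested genes were. H2-Q6, a class I histocompatibility gene with close copies and therefore uncertain, was 103, 24.6 and 65.8 CPM in BAT and 17.4, 16.4 and 13.4 in EWAT (adjusted p = 0.0823). The other leading members were H2-Q7, H2-Q4 and Tap1, a peptide transporter, with adjusted p between 0.1599 and 0.187.

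The genes called lower in BAT included Krt8 and Krt18, which are on the list for mesothelium, the epithelial sheet over visceral organs. Dsg2, Aqp5, Col4a6 and Myrf are not on that list. Krt18 (chr15:102028180-102032027) and Krt8 (chr15:101996698-102004482), partner keratins of simple epithelia, lie 23.7 kb apart on chromosome 15. Krt8 was 0.746, 0.355 and 0.383 CPM in BAT 1 to 3 and 10.8, 14.8 and 37.1 CPM in EWAT 1 to 3 (log2 fold change -5.38 ± 0.85, adjusted p = 0.0243). Krt18 was 0.107, 0 and 0.0548 CPM in BAT and 3.999, 4.34 and 14.3 in EWAT, that is 3 counts in BAT against 453 in EWAT, or a ratio of EWAT to BAT of 145 (95% interval 49.4 to 707) from counting alone (adjusted p = 0.0146). EWAT 3 had the highest level of both keratins. Dsg2 (chr18:20558074-20604521), a desmosomal cadherin, was 0.213, 0.253 and 0.1095 CPM in BAT and 2.29, 3.14 and 5.13 in EWAT (log2 fold change -4.14 ± 0.62, adjusted p = 0.03199). Aqp5 (chr15:99590782-99594829), an epithelial water channel, was 0.0533, 0 and 0.0548 CPM in BAT and 0.524, 1.26 and 2.74 in EWAT, with 2 counts in BAT against 89 in EWAT, or a ratio of 42.8 (95% interval 11.5 to 359) (adjusted p = 0.04505). Col4a6 (chrX:141165403-141474076), a basement membrane collagen chain, was 0.586, 0.253 and 0.383 CPM in BAT and 4.86, 5.31 and 6.25 in EWAT (log2 fold change -3.73 ± 0.46, adjusted p = 0.0141). Myrf (chr19:10208272-10240748), a membrane-bound transcription factor best known from myelinating glia, was 1.598, 1.82 and 1.53 CPM in BAT 1 to 3 and 11.1, 18.2 and 21.00 CPM in EWAT 1 to 3 (log2 fold change -3.34 ± 0.39, adjusted p = 0.0139), and its levels varied little within BAT.

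Of 23 tested mesothelial genes, 2 were called lower in BAT (Krt8 and Krt18), against 0.0528% of all tested genes. At an unadjusted p under 0.05, 15 had a lower level, against 3.92% of all tested genes, and 2 a higher level, against 6.03%. 15 had all BAT libraries below all EWAT libraries, against 5.15% of all tested genes. For the list as a whole the median log2 fold change was -2.98, and it ranged from -3.33 to -2.44 when 1 BAT or EWAT library was left out. Without RWAT 1, 7 of these genes were called lower, where 0.235% of all tested genes were called. Without BAT 1, 0 of these genes were called, where 0.0154% of all tested genes were. Wt1, the factor of mesothelium and of visceral fat precursors, was 0.3196, 0.0507 and 0.493 CPM in BAT 1 to 3 and 16.7, 19.8 and 16.4 CPM in EWAT 1 to 3 (adjusted p = 0.05505). Upk1b, a uroplakin, was 0.266, 0 and 0.164 CPM in BAT and 5.999, 6.11 and 19.9 in EWAT (adjusted p = 0.0786). Msln, which encodes mesothelin, was 0.107, 0.0507 and 0.219 CPM in BAT and 5.33, 2.23 and 10.7 in EWAT (adjusted p = 0.124), and Upk3b, a further uroplakin, 0.266, 0.0507 and 0.219 CPM in BAT and 2.95, 6.68 and 17.5 in EWAT (adjusted p = 0.132). None of these 4 passed the adjusted threshold, but their depots did not overlap. The 2 members with a higher level in BAT, Igfbp6 and Efemp1, are secreted proteins that fibroblasts also make.

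Among transcription factors lower in BAT, Hand2 (chr8:57320983-57324633), of the heart, limb and sympathetic lineages, was 0, 0.0507 and 0 CPM in BAT and 1.81, 3.31 and 1.07 in EWAT, that is 1 count in BAT against 118 in EWAT, or a ratio of EWAT to BAT of 114 (95% interval 19.98 to 4522) (adjusted p = 0.0146). Gata5 (chr2:180325133-180334699), a zinc finger factor of heart and gut, was 0.107, 0 and 0.164 CPM in BAT and 1.52, 2.28 and 4.35 in EWAT (log2 fold change -4.84 ± 0.86, adjusted p = 0.0458). Gata5 and Hand2 were the 2 called members of 18 tested visceral white fat patterning factors, of which 6 had an unadjusted p under 0.05 with a lower level in BAT and 5 with a higher level. Over all tested genes these last shares were 3.92% and 6.03%, and 0.0528% were called lower in BAT. Gata6, a relative of Gata5, was 5.43, 7.71 and 7.67 CPM in BAT and 20.5, 18.9 and 16.9 in EWAT (adjusted p = 0.122), and it is named outside the rule for named genes, after its values were seen. Tcf21, a marker of visceral fat precursors, had 0 counts in BAT and 0.476, 1.71 and 0.782 CPM in EWAT, at least 17.96-fold lower in BAT (adjusted p = 0.2098). Irx2, an Iroquois homeobox factor on the same list, was 1.07, 4.36 and 2.300 CPM in BAT and 0.238, 0.0571 and 0.0488 in EWAT and so leaned the other way (adjusted p = 0.0555). The median log2 fold change of the list was -0.37, and -1.15 without BAT 2.

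Hox genes of the posterior trunk were scarce in both depots. Of 16 genes 6 passed the count filter, 0 were called, 3 had an unadjusted p under 0.05 with a lower level in BAT, and 4 had all BAT libraries below all EWAT libraries. Over all tested genes these last shares were 3.92% and 5.15%. Hoxc10 had 0 counts in BAT and 0.238, 0.171 and 0.293 CPM in EWAT, at least 4.49-fold lower (adjusted p = 0.213). Hoxa10 was 0.0533, 0 and 0 CPM in BAT and 0.381, 0.3996 and 0.488 in EWAT, 1 count against 25, a ratio of 24.1 (95% interval 3.94 to 988). Hoxa9 was 0.1598, 0.0507 and 0.1095 CPM in BAT and 0.762, 0.3996 and 0.4396 in EWAT (adjusted p = 0.284), and Hoxc9 overlapped between depots. The median log2 fold change of the 6 was -1.66, and -1.61 with Hoxc10 at its bound. These levels lie close to that of 3 counts, so differences among them rest on few reads.

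The remaining called genes lower in BAT were Htr2b and Bcl2a1b. Htr2b (chr1:86099026-86111970), a serotonin receptor, was 3.14, 3.903 and 2.52 CPM in BAT and 13.6, 14.3 and 17.98 in EWAT (log2 fold change -2.26 ± 0.34, adjusted p = 0.03199). Bcl2a1b (chr9:89199209-89207827), an inhibitor of cell death expressed in leukocytes, was 17.2, 23.5 and 6.96 CPM in BAT and 106, 113 and 95.7 in EWAT (log2 fold change -2.73 ± 0.42, adjusted p = 0.0332). It has near-identical copies and an overlapping gene model on its own strand, so its count is uncertain. The annotation places a gene on the opposite strand over 13 of the 27 called genes, among them Psmd1 over the whole of Htr2b and Hand2os1 over most of Hand2. Whether reads were assigned by strand is not given in the sources used here, so reads from such pairs cannot be told apart. By position, 6 of the 27 called genes (Ly6a, Ly6c1, Apol9a, Aqp5, Krt8 and Krt18) lie on chromosome 15, which holds 3.39% of the tested genes. Ly6a and Ly6c1 are 45.99 kb apart.

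The other white depots show which depot stood apart for a gene. These comparisons share libraries with the one above, so only values are set side by side. Tbx15 was 22.8, 23.6 and 17.2 CPM in the IWAT libraries and 19.7, 4.82 and 10.8 CPM in the RWAT libraries, so EWAT was the low depot. It was higher than in EWAT by 6.65 ± 0.55 in IWAT (adjusted p = 0.00121) and by 5.804 ± 0.54 in RWAT (adjusted p = 0.00427). Between BAT and IWAT its log2 difference was -0.10 ± 0.39 (adjusted p = 0.934). Zic1 was 0.196, 0.0446 and 0.118 CPM in IWAT and 0.628, 0.182 and 0.9095 in RWAT, so BAT was the high depot. It was above IWAT by 6.73 ± 0.69 (adjusted p = 0.00372) and above RWAT by 4.51 ± 0.57 (adjusted p = 0.0209). Syndig1 was likewise low outside BAT, at 0, 0.0892 and 0.177 CPM in IWAT and 0.0967, 0.0455 and 0 in RWAT, but did not pass the test against IWAT (adjusted p = 0.177) or RWAT (adjusted p = 0.399). Krt8 was 0.0654, 0.0446 and 0 CPM in IWAT and 0.242, 6.27 and 2.96 in RWAT, and in IWAT it fell below EWAT (adjusted p = 0.00349). Among the other called genes, Oas2 (adjusted p = 0.0715) and Apol9a (adjusted p = 0.153) did not pass between IWAT and EWAT. The rest differed from EWAT in IWAT in the same direction as in BAT, with adjusted p of at most 0.0254. The same EWAT libraries enter both comparisons, so this is not separate evidence. Zic1 alone of the called genes passed between BAT and IWAT or between BAT and RWAT. As background, 11% of tested genes were called between IWAT and EWAT, 0.00528% between RWAT and EWAT, 0.0264% between BAT and IWAT and 0.0211% between BAT and RWAT.

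**Figure D4:**
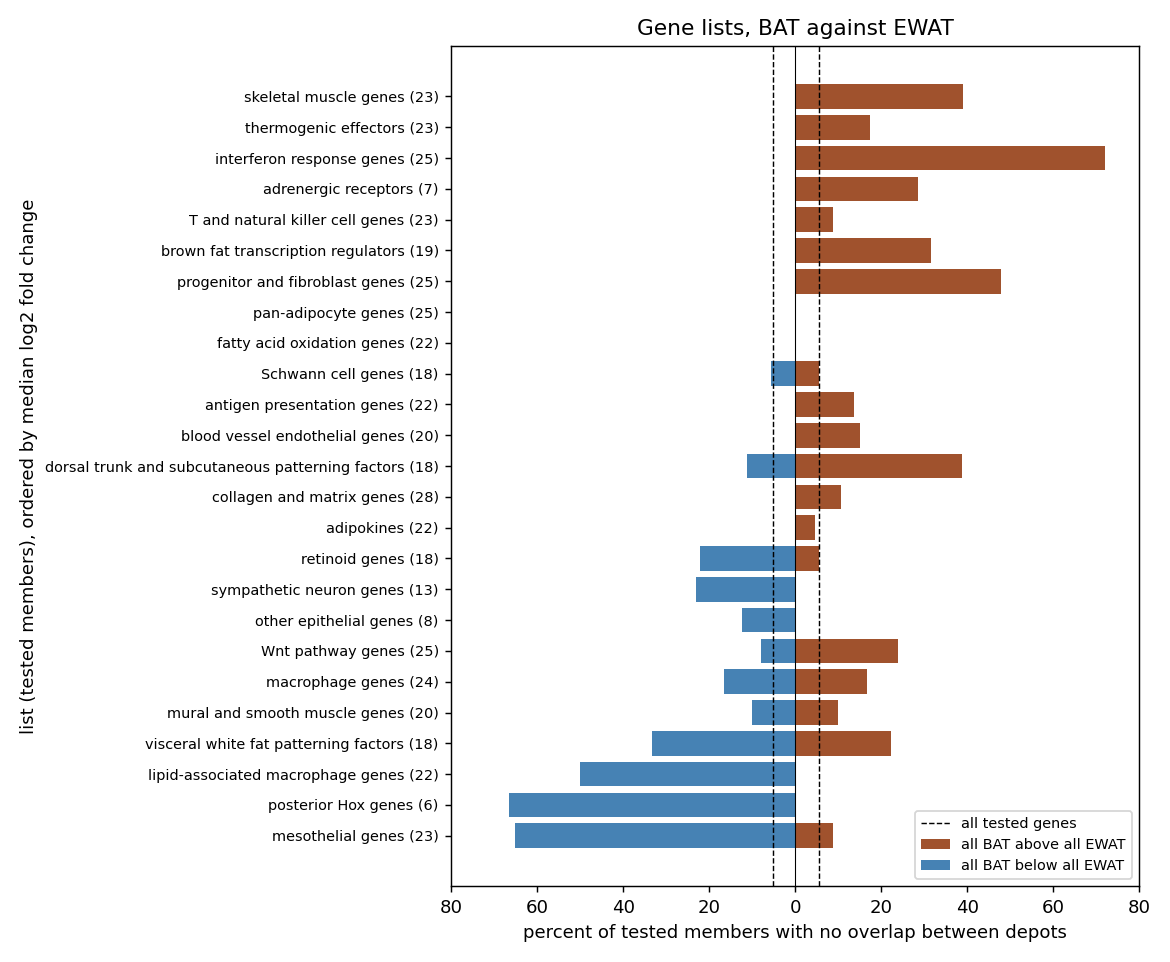
Percent of the tested members of 25 lists (10 lists without a call, from B cells to central Hox genes, are left out) with all BAT libraries above all EWAT libraries (brown, right) or below them (blue, left), with the number of tested members in brackets and dashed lines at the 5.49% and 5.15% of all tested genes. Interferon response and progenitor genes extend furthest to the right, and posterior Hox, mesothelial and lipid-associated macrophage genes furthest to the left.

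The fitted median of heat-production genes was higher in BAT, but no single gene was called and BAT 1 alone stood apart. Their summed levels were 3478, 235 and 276 CPM in BAT 1 to 3 and 184, 241 and 266 CPM in EWAT 1 to 3. Of 23 tested thermogenic effectors, 16 had a higher level in BAT at an unadjusted p under 0.05, against 6.03% of all tested genes. 0 were called, and 4 had all BAT libraries above all EWAT libraries, against 5.49% of all tested genes. The median log2 fold change of the list was 3.07, and 0.56 without BAT 1, where 2 had an unadjusted p under 0.05. Plin5, which ties lipid droplets to mitochondria, was 81.7, 10.9 and 11.1 CPM in BAT 1 to 3 and 1.904, 3.996 and 3.71 CPM in EWAT 1 to 3 (adjusted p = 0.124). Cpt1b, the carnitine transferase that lets fatty acids into mitochondria, was 219, 0.963 and 2.46 CPM in BAT and 1.57, 1.77 and 0.782 in EWAT (adjusted p = 0.215). The fitted change of Ucp1 was 9.28 ± 2.70 (adjusted p = 0.218) and that of Cidea 8.84 ± 2.32 (adjusted p = 0.177), and BAT 1 alone was high for both. Without BAT 1 and EWAT 2 together the fitted value of Ucp1 was -0.25, an alternative chosen after seeing the data. Of 22 fatty acid oxidation genes, 9 had a higher level in BAT at an unadjusted p under 0.05, 0 were called and 0 were free of overlap. Their median log2 fold change was 1.03, and 0.34 without BAT 1, with the lead members Cpt1b, Acadvl, Cpt2 and Etfdh. The 9 became 0 without BAT 1, 2 without EWAT 1 and 18 without BAT 2. Acadvl, a fatty acid dehydrogenase, was 532, 75.9 and 138 CPM in BAT and 51.99, 74.9 and 95.8 in EWAT (adjusted p = 0.298).

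Adipocyte genes as such leaned higher in BAT but overlapped between the depots. Of 25 pan-adipocyte genes, 24 had a higher fitted level in BAT, with a median log2 fold change of 1.17. 1 had an unadjusted p under 0.05, 0 were called and 0 were free of overlap. Such a p with a higher level in BAT was reached by 6.03% of all tested genes. All BAT libraries lay above all EWAT libraries for 5.49%. With 3 uneven libraries a depot, these counts do not show that the depots are alike. Adipoq, which encodes adiponectin, was 585, 173 and 2276 CPM in BAT 1 to 3 and 34.8, 1007 and 301 CPM in EWAT 1 to 3 (adjusted p = 0.792). Lep, which encodes leptin, was 141, 138 and 939 CPM in BAT 1 to 3 and 13.05, 785 and 308 CPM in EWAT 1 to 3 (adjusted p = 0.9897). BAT 2 and EWAT 1 were lowest for both genes within their depots, although BAT 1 and BAT 2 were nearly equal for Lep. Fasn, the fatty acid synthase, was 2923, 271 and 425 CPM in BAT and 149, 118 and 307 in EWAT (adjusted p = 0.496), highest in BAT 1. Gpd1, the enzyme that supplies glycerol phosphate for triglyceride, was 1408, 199.9 and 536 CPM in BAT and 23.6, 303 and 287 in EWAT (adjusted p = 0.524). Adrb3, the beta-adrenergic receptor of adipocytes, was 68.1, 7.86 and 226 CPM in BAT and 1.05, 61.6 and 11.7 in EWAT (adjusted p = 0.663). Among 7 tested adrenergic receptors 2 had an unadjusted p under 0.05, both higher in BAT, and 0 were called. Adra1d was 4.26, 2.64 and 5.09 CPM in BAT and 0.762, 1.43 and 1.17 in EWAT (adjusted p = 0.0944) and Adrb1 8.58, 2.33 and 5.42 CPM in BAT and 1.19, 1.88 and 1.12 in EWAT (adjusted p = 0.213), each without overlap. Of 22 adipokine genes 0 had an unadjusted p under 0.05.

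Skeletal muscle genes were highest in BAT 1 among the 6 libraries, and their sums in BAT 2 and BAT 3 also exceeded those of EWAT. Of 23 tested, 10 had a higher level in BAT at an unadjusted p under 0.05, 0 were called and 9 were free of overlap, with a median log2 fold change of 3.48 that became 1.16 without BAT 1. Of all tested genes, 6.03% had such a p and 5.49% had all BAT libraries above all EWAT libraries. The 10 became 0 without BAT 1, 3 or 4 without an EWAT library and 16 without RWAT 2. Myh1, a fast myosin heavy chain, was 27.2, 1.06 and 1.86 CPM in BAT 1 to 3 and 0.1904, 0.3996 and 0.244 CPM in EWAT 1 to 3 (adjusted p = 0.303). Mb, which encodes myoglobin, was 14.1, 0.963 and 0.219 CPM in BAT and 0, 0 and 0.195 in EWAT, and Ttn, which encodes titin, 152, 34.3 and 6.19 CPM in BAT and 4.999, 6.28 and 2.83 in EWAT. BAT 1 was the highest library for all 3, as it was for Ucp1, and the summed level of the list was higher still in RWAT 1 and RWAT 3, at 1180.4 and 6868 CPM. The part of muscle RNA in the values of BAT 1 was not tested.

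**Figure D5:**
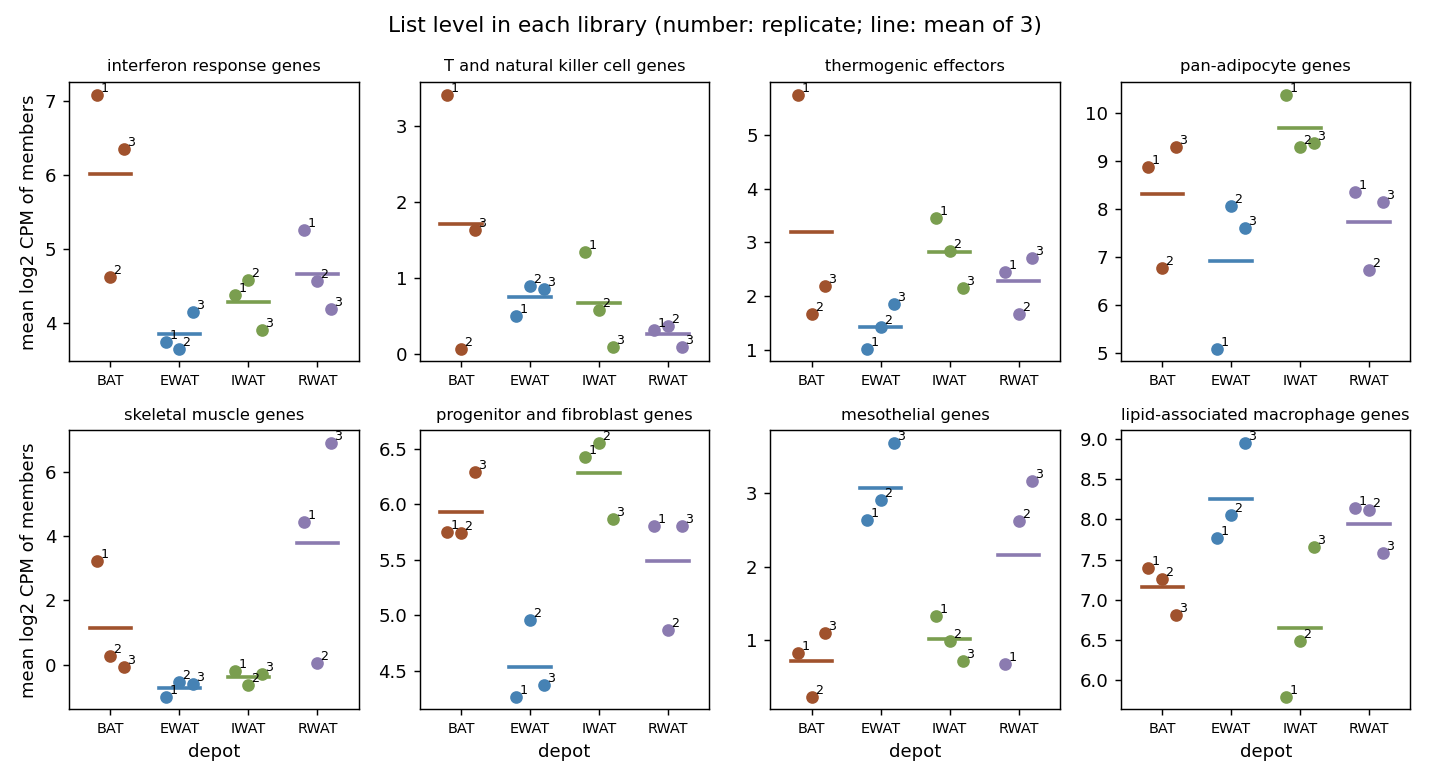
Mean log2 CPM (prior count 2) of the tested members of 8 lists in each of the 12 libraries, with the replicate number beside each point and a line at the mean of each depot. Within BAT, replicate 1 is highest for interferon, T and natural killer cell, thermogenic and muscle genes, while mesothelial and lipid-associated macrophage genes are lower in all 3 BAT libraries than in all 3 EWAT libraries.

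Of 25 tested progenitor and fibroblast genes, 23 had a higher fitted level in BAT and 1, Ly6a, was called. Of the 25, 15 had a higher level in BAT at an unadjusted p under 0.05, 0 a lower level, and 12 had all BAT libraries above all EWAT libraries. The same shares were 6.03%, 3.92% and 5.49% of all tested genes. Over the list the median log2 fold change was 1.20, and 1.48 without BAT 1, so it did not rest on that library. Pi16, a marker of early adventitial progenitors, was 99.4, 55.9 and 291 CPM in BAT 1 to 3 and 4.48, 8.91 and 3.47 CPM in EWAT 1 to 3 (adjusted p = 0.0723). Dpp4, which marks the same cells, was 47.4, 63.8 and 78.3 CPM in BAT and 3.999, 8.91 and 11.6 in EWAT (adjusted p = 0.0823). Cd34, a surface sialomucin of progenitors, was 171, 267 and 221 CPM in BAT and 85.7, 68.6 and 55.2 in EWAT (adjusted p = 0.124). Of 28 collagen and matrix genes, 2 had a higher level at an unadjusted p under 0.05, 1 a lower level and 0 were called. These counts are near the shares of all tested genes. Mmp2, a gelatinase on that list, was 126, 148 and 139 CPM in BAT and 73.99, 62.00 and 31.4 in EWAT (adjusted p = 0.0982). Of 25 Wnt pathway genes, Wnt16 was called, 7 had an unadjusted p under 0.05 with a higher level and 3 with a lower level. Such a p was reached by 6.03% and 3.92% of all tested genes, and 0.0897% were called higher in BAT. Wnt4, a ligand of epithelia and mesothelium, was 2.93, 3.04 and 3.61 CPM in BAT and 12.6, 21.5 and 10.8 in EWAT and leaned lower in BAT (adjusted p = 0.123). Sfrp1, a secreted Wnt antagonist, was 15.7, 3.65 and 8.05 CPM in BAT and 28.8, 40.3 and 20.3 in EWAT (adjusted p = 0.174), and Wnt10b, a ligand that restrains adipocyte formation, 1.705, 2.69 and 4.93 CPM in BAT and 0.428, 0.514 and 0.195 in EWAT (adjusted p = 0.223).

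Genes of lipid-associated macrophages, which take up lipid around dying adipocytes in obese fat, were lower in BAT without any call. Of 22 tested, 8 had a lower level at an unadjusted p under 0.05 (3.92% of all tested genes) and 0 a higher level. 11 had all BAT libraries below all EWAT libraries, against 5.15% of all tested genes. For the list the median log2 fold change was -1.05, and -0.58 without EWAT 3 (5 genes in place of 8). EWAT 3 was the library with the highest summed level (11852, 12162 and 11197 CPM in BAT 1 to 3 and 20257, 19349 and 40388 CPM in EWAT 1 to 3). Cd9, a tetraspanin of these cells, was 51.9, 79.7 and 40.1 CPM in BAT 1 to 3 and 172, 135 and 169 CPM in EWAT 1 to 3 (adjusted p = 0.126). Clec7a, a receptor for fungal glucans, was 52.5, 18.2 and 26.2 CPM in BAT and 57.99, 123 and 105 in EWAT (adjusted p = 0.163). Cd63, a lysosomal tetraspanin, was 136, 178 and 124 CPM in BAT and 182, 233 and 301 in EWAT (adjusted p = 0.264), and Bhlhe41, a clock-related repressor, 13.6, 10.9 and 6.46 CPM in BAT and 31.3, 14.1 and 24.5 in EWAT (adjusted p = 0.222). General macrophage genes divided: of 24, 5 had an unadjusted p under 0.05 with a higher level in BAT, 4 with a lower level and 0 were called. Of all tested genes, 6.03% had such a p with a higher level and 3.92% with a lower level. The 5 became 2 without BAT 3, and the 4 became 2 without BAT 1 or EWAT 1. Lyz2, the lysozyme of myeloid cells, was 2286, 2256 and 2928 CPM in BAT and 6429.8, 8224 and 5421 in EWAT (adjusted p = 0.211). Lyve1, a marker of resident perivascular macrophages and of lymphatics, was 26.8, 45.2 and 132 CPM in BAT and 13.2, 25.7 and 5.47 in EWAT (adjusted p = 0.231), and Retnla, a marker of alternative activation, 22.4, 6.69 and 94.8 CPM in BAT and 1.24, 5.14 and 2.83 in EWAT (adjusted p = 0.231). Lyz2 and Cd14 were lower and Lyve1 and Retnla higher in all BAT libraries than in all EWAT libraries.

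Markers of vessels, nerves and other cells are given by their counts. As background, 6.03% of all tested genes had an unadjusted p under 0.05 with a higher level in BAT and 3.92% with a lower level. The shares called were 0.0897% and 0.0528%. All 20 blood vessel endothelial genes had a higher fitted level in BAT, but 3 had an unadjusted p under 0.05 and 0 were called. The 3 became 13 without EWAT 1 and 1 without EWAT 2 or EWAT 3. Tek, the angiopoietin receptor, was 44.00, 33.00 and 59.3 CPM in BAT 1 to 3 and 18.1, 17.1 and 12.5 CPM in EWAT 1 to 3 (adjusted p = 0.0544). Of 20 mural and smooth muscle genes, 4 had an unadjusted p under 0.05 with a higher level and 6 with a lower level, and 0 were called. The 4 became 2 without BAT 1 or EWAT 3. Cnn1, a contractile protein, was 1.97, 5.17 and 0.767 CPM in BAT and 26.2, 25.7 and 4.05 in EWAT (adjusted p = 0.213). Among 13 tested sympathetic neuron genes, 3 had an unadjusted p under 0.05 with a lower level in BAT and 0 with a higher level. Hand2, which is also on the list of visceral white fat patterning factors, was the 1 called. Npy, a peptide of sympathetic nerves, was 2.02, 4.31 and 1.26 CPM in BAT and 7.28, 9.48 and 20.7 in EWAT (adjusted p = 0.429). Of 18 tested Schwann cell genes, 5 had an unadjusted p under 0.05 with a higher level in BAT and 1 with a lower level, namely Ncam1 (9.802, 23.9 and 4.38 CPM in BAT and 89.7, 45.7 and 27.1 in EWAT, adjusted p = 0.256), and the 5 became 1 without BAT 1 and 3 without EWAT 1. Among 18 tested retinoid genes, 1 had an unadjusted p under 0.05 with a higher level in BAT and 3 with a lower level, and 0 were called. Aldh1a2, the enzyme that makes retinoic acid and also a mesothelial marker, was 3.303, 1.42 and 5.04 CPM in BAT and 12.4, 12.4 and 27.1 in EWAT (adjusted p = 0.0823). Of 8 tested genes of other epithelia, Krt14 alone had an unadjusted p under 0.05, with 3 counts in BAT against 288 in EWAT, or a ratio of 92.4 (95% interval 31.3 to 451) (adjusted p = 0.0563). None of the genes on the lists of B cells, dendritic cells, mast cells and granulocytes, lymphatic endothelium, cell cycle, immediate early, lipid synthesis, tricarboxylic acid cycle, anterior Hox and central Hox genes was called. In those 10 lists, a higher level in BAT at an unadjusted p under 0.05 was most frequent in the tricarboxylic acid cycle, with 7 of 21 genes, a count that became 0 without BAT 1 or EWAT 1, 2 without EWAT 2, 11 without IWAT 1 and 18 without BAT 2. Acacb, the acetyl-CoA carboxylase at the mitochondrial surface, was 184, 20.9 and 87.1 CPM in BAT and 4.14, 21.5 and 16.6 in EWAT (adjusted p = 0.159) and led the 3 of 24 lipid synthesis genes with such a p, which became 1 without BAT 1 or EWAT 1, 6 without IWAT 1 and 9 without BAT 2. Reln, a secreted glycoprotein of lymphatic endothelium, was 3.46, 1.17 and 1.86 CPM in BAT and 0.381, 0.799 and 0.391 in EWAT (adjusted p = 0.211), 1 of 3 such genes among 11. Of 24 cell cycle genes 23 had a lower fitted level in BAT, 0 with an unadjusted p under 0.05, and Pcna, the replication clamp, was 105, 165 and 82.05 CPM in BAT and 134, 150.1 and 317 in EWAT (adjusted p = 0.518). Of 9 anterior and 11 central Hox genes 0 had an unadjusted p under 0.05.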

How the data were processed

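The series holds total RNA sequencing of 12 fat libraries, 3 for each of 4 depots. Reads were trimmed with Trimmomatic 0.36 and quantified with RSEM 1.3.0 against GRCm38.p4, per the submitters' processing notes, which also name DESeq2 1.10.1. The aligner, the annotation release and the strand setting are not given in the sources used here. Per gene, the deposited tables give RSEM expected counts, which were rounded to whole numbers for every test. The deposited TPM values were not tested, and the effective lengths deposited by the authors entered only 1 alternative.

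Genes with too few counts were left out with edgeR's filterByExpr (minimum count 10), which kept 18942 of 47729. Library sizes were scaled by TMM, and edgeR 4.0.16 (R 4.3.3) fitted 1 coefficient per depot to all 12 libraries with the quasi-likelihood F test, two-sided, 8 residual degrees of freedom and a biological coefficient of variation of 0.385. P-values were adjusted by Benjamini-Hochberg over all tested genes, with a threshold of 0.05. The newer quasi-likelihood method of this edgeR version was used rather than its default, and that choice was made after the counts of calls from both (27 and 16) had been seen. Standard errors are the log2 fold change divided by the square root of F. For genes with 1 to 3 counts in a depot, the ratio has an exact 95% interval that covers counting error only. For genes with 0 counts, a lower bound against 3 counts over the group is given.

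The members and gene lists were chosen with earlier results of these data known. Named genes are every called gene, up to 4 members of each list by unadjusted p, and a fixed set with Ucp1, Cidea, Adipoq, Lep, Adrb3, Th, Wt1, Tcf21, Hoxa9, Hoxc10, Msln and Upk3b. A few genes, 1 of the called genes among them, are not reported here by name, but all counts include them. Gene positions are from GENCODE on GRCm38. Promoter windows were cut to the 250 bases before the start, to leave out untranslated sequence, after matches in longer windows had been seen. The fit was tested on simulated counts. Alternatives were other scalings, filters, tests (DESeq2 1.42.0, limma 3.58.1), sample sets and left-out libraries.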

Additional observations from a re-analysis of the deposited data

How the results depend on the processing

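The count of 27 calls (17 higher in BAT, 10 lower) was within 1.5 times under relative log expression and upper-quartile scaling, TMM without mitochondrial and ribosomal RNA, the 1 CPM filter, the 6-library fit, the effective-length offset, an added fold threshold and robust spread estimates. A similar count need not hold the same genes, since the 6-library fit kept 13 of the 27 and called 8 others. The count was 63 (39 and 24) with no filter on low counts, 477 (352 and 125) with DESeq2, 16 (11 and 5) with limma-voom and 16 (12 and 4) with the earlier quasi-likelihood method. It was 5 (5 and 0) without both BAT 2 and EWAT 1, and 2 (2 and 0) without both BAT 1 and EWAT 2; the latter pair, the earlier method and robust estimates were chosen after seeing the data. Leaving out 1 of 12 libraries gave 3 to 247 calls, 2 to 213 higher and 0 to 34 lower. Each of the 27 called genes kept its direction in every alternative; the calls stood in 447 of these gene-by-alternative fits and were lost in 281, and the cause was not tested.

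Same-numbered BAT and EWAT libraries did not deviate together from their depot means (correlations of -0.196, -0.359 and -0.048). Of pairs with different numbers, BAT 2 with EWAT 1 had 0.464, BAT 3 with EWAT 2 0.426 and BAT 1 with EWAT 3 0.235. BAT 3 with EWAT 1 had -0.334, BAT 1 with EWAT 2 -0.022 and BAT 2 with EWAT 3 -0.159. The labels do not say whether libraries with the same number came from the same animal. With 3 libraries a depot, these correlations cannot settle it. With the number as a replicate block, 13 genes were called in 12 libraries (7 higher, 6 lower) and 0 in the 6 libraries (0 higher, 0 lower; 837 genes at an unadjusted p under 0.05).

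Among named genes that were not called, some fitted differences changed sign. Without BAT 3, Adipoq was -0.24, Lep -1.40, Igkc -1.30, Jchain -1.42 and Hoxb2 0.07. Without both BAT 1 and EWAT 2, Ccr7 was -0.061, Hoxa6 0.12, Siglech -0.097 and Ucp1 -0.25. Without both BAT 2 and EWAT 1, Lep was -0.019. Hoxb2 was 0.02 and Siglech -0.0035 without BAT 1, and Hoxb2 was 0.24 and Lep -0.43 without EWAT 1. At the other end, the highest value without 1 library was 2.58 for Adipoq, 2.96 for Igkc, 3.13 for Jchain, 1.33 for Lep and 2.06 for Siglech, and the lowest for Hoxb2 was -1.02. Under the 12-library replicate block Lep was -0.30. Differences near the level of 3 counts (0.143 to 0.171 CPM) were limited by depth.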
